A study of Rattus norvegicus with 10 samples.

Results

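The complement system was followed at 10 of its genes, the 3 chains of C1q (C1qa, C1qb, C1qc), its proteases C1r and C1s, the components C3 and C8a, properdin (Cfp) and the anaphylatoxin receptors C3ar1 and C5ar1. They were taken as every probe set of the array whose single gene symbol in the array annotation was one of these names, which gave 11 probe sets (Cfp had 2) of 31042 tested. RNA of rat peritoneal macrophages was measured on Affymetrix rat genome arrays, with 5 samples of control macrophages and 5 of mye-macrophages, cells given myelin to take up. The cells were resident peritoneal macrophages of Hsdcpb:WU rats, the age of which is not given in the sources used here. Mye-macrophages spent 3 days in culture with isolated myelin at 100 µg/ml and control macrophages 3 days without it, and both groups were then given IFNγ and IL-1β at 100 ng/ml for 9 hours. No group was left without these cytokines, so every value below is from stimulated cells, and the design gives no level in resting macrophages. Samples were compared in pairs by the replicate number of their labels.

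Complement is a cascade of plasma proteins that marks particles for uptake, calls in leukocytes and punctures membranes. In the classical pathway C1q, in which A, B and C chains wind together, binds its target and switches on C1r, which cleaves C1s, which in turn cleaves the next components. The pathways meet at C3, whose fragment C3b coats the target, while the small fragments C3a and C5a act on C3ar1 and C5ar1, G protein-coupled receptors of myeloid cells. Macrophages are a main source of C1q, whereas most circulating components come from the liver.

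In mye-macrophages C1qa rose 1.72-fold, the receptor gene C3ar1 fell to 0.585 of its control level and C5ar1 fell to 0.751 of its control level (limma with the replicate number as a block, adjusted p of 0.00204, 0.0461 and 0.0283). The other 8 probe sets were not called, the nearest being C1r at an adjusted p of 0.0517. Thus 1 of 11 probe sets was called higher, where 0.792% of all 15521 probe sets kept by the variance filter were, and 2 of 11 were called lower, where 1.90% of all were. The median log2 fold change (mye-macrophages over control macrophages) was 0.09 over the 11 probe sets and 0.00 over all probe sets tested. All 3 calls depend on the pairing. Without the replicate block no probe set of the array was called, and C1qa, C3ar1 and C5ar1 had adjusted p of 0.585, 0.807 and 0.629, although C1qa, C5ar1 and C8a stayed at an unadjusted p under 0.05, as did 1032 of the 15521.

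**Figure D1:**
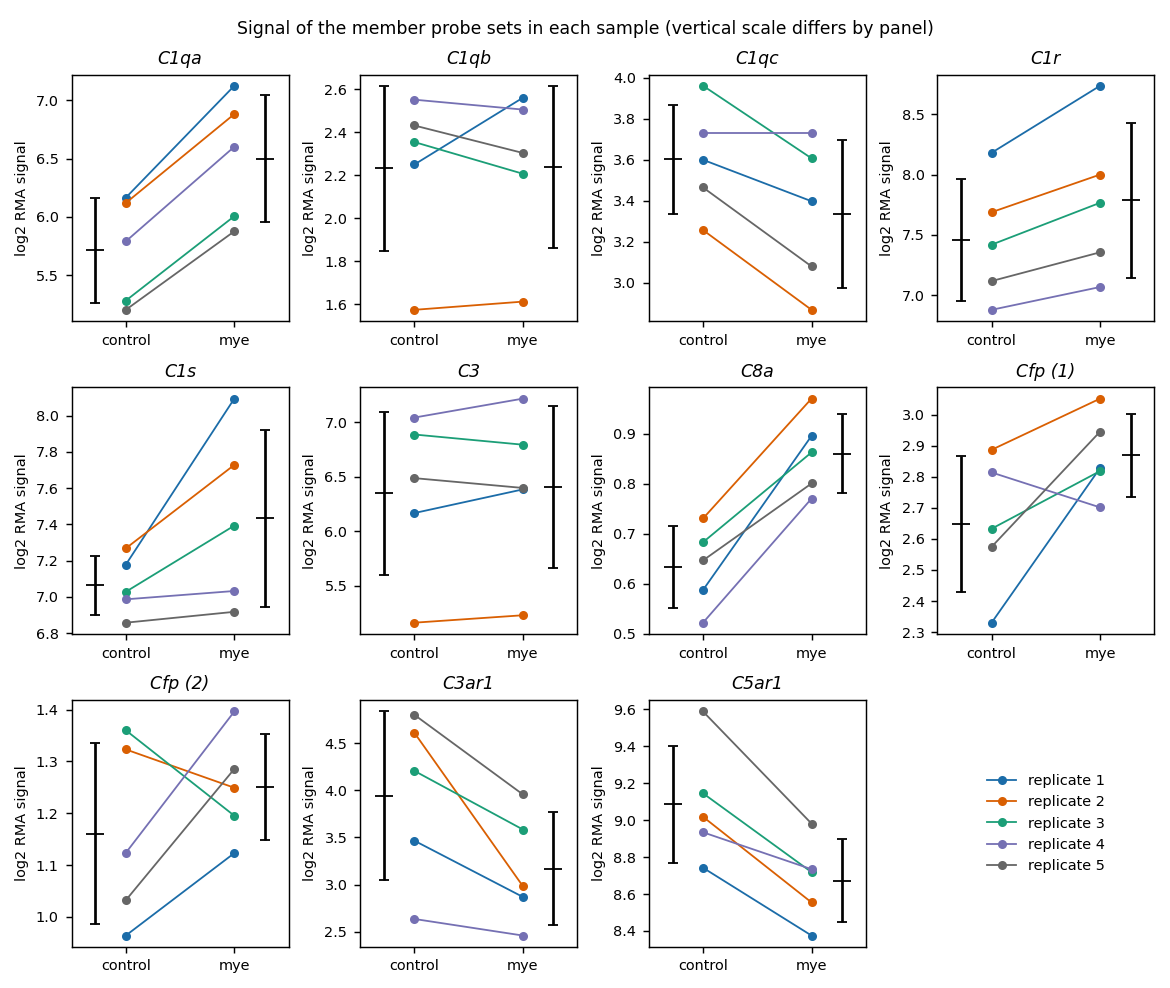
Log2 RMA signal (vertical axis, scale differing by panel) of the 11 probe sets in control macrophages and mye-macrophages, with lines joining samples of 1 replicate number and the black marks giving mean ± SD (n = 5). All 5 lines rise for C1qa, C1r, C1s and C8a and all 5 fall for C3ar1 and C5ar1. The replicates of a group are spread more widely than the lines are steep for C3 and C1qb, and also for others, among them C1qa, C1qc and C1r.

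The sequences before the start sites of 4 of these genes are given here because their signals went different ways: C1qa rose, its partner C1qb had a log2 fold change of 0.01, C1r was just short of the threshold and C3ar1 fell. RefSeq promoter entries (rat build GRCr8, 250 bases before the start to 50 after it) matched 7 of the 10 genes. The 5 motifs below were searched on both strands, and matches are in capitals: TTCNNNGAA, the interferon-gamma activation site, present in 8.87% of 33469 rat promoters of this length; GAGGAA, the core bound by PU.1 of myeloid cells, in 27.6%; the interferon response element (GAAA, any 2 bases, GAAA), in 3.92%; TTNNGNAA, bound by C/EBP factors, in 41.3%; and the direct repeat bound by LXR (AGGTCA, any 4 bases, AGGTCA), in 0.00598%. No matches overlap in these 4 sequences. Each is printed 5′ to 3′ on the strand of its gene.
C1qa, chr5:154419884-154420183, minus strand: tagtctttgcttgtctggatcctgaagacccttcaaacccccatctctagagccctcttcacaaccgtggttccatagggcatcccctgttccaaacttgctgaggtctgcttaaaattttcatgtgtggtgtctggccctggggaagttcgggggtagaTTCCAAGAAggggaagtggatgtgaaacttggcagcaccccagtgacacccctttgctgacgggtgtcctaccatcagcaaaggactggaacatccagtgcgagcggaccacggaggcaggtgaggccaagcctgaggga
C1qb, chr5:154407778-154408077, minus strand: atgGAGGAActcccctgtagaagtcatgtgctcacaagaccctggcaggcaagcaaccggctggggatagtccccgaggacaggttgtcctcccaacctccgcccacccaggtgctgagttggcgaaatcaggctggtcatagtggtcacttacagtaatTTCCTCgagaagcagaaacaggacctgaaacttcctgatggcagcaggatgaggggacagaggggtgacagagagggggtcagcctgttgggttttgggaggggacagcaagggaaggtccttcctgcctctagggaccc
C1r, chr4:159098763-159099062, plus strand: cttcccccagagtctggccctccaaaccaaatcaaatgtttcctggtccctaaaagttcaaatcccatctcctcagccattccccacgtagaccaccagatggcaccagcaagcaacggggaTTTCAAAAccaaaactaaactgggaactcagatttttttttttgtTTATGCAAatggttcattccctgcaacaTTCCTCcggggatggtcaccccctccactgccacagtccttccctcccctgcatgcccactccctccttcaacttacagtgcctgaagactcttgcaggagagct
C3ar1, chr4:157756481-157756780, minus strand: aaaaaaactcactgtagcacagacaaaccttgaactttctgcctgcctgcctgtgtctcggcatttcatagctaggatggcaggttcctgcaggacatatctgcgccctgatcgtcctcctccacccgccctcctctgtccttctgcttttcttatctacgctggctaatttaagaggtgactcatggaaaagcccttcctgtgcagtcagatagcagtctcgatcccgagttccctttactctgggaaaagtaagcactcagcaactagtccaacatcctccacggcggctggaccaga
The promoter of C1qa held 1 match, to the interferon-gamma activation site, at bases -90 to -82 from the start. That of C1qb held 2 PU.1 cores, at -247 to -242 and, read on the other strand, at -90 to -85. C1r had 2 C/EBP matches, at -128 to -121 (read on the other strand) and -83 to -76. It also had 1 PU.1 core at -55 to -50, read on the other strand. C3ar1 had no match to any of the 5, which says only that these letters are not in this window. Among the promoters not printed, C3 had 2 C/EBP matches, Cfp 2 PU.1 cores, and C8a 1 interferon-gamma activation site and 2 C/EBP matches. The LXR repeat and the interferon response element were found in none of the 7. These exact letters are in 0.00598% and 3.92% of rat promoters, so their absence from 7 says little about such sites in these genes. A match to such short motifs is a description of the sequence and does not show that a factor binds there.

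The A chain of C1q was the member with the lowest adjusted p. The log2 signal of C1qa (1376652_at) was 6.17, 6.12, 5.28, 5.79 and 5.20 in control replicates 1 to 5, and 7.12, 6.88, 6.01, 6.60 and 5.88 in mye-macrophages, means of 5.71 ± 0.45 and 6.50 ± 0.54 (SD, n = 5). The groups overlap, since replicates 3 and 5 of the mye-macrophages lie below the 2 highest control samples, but within each pair the mye-macrophages were higher, by 0.67 to 0.96. The log2 fold change was 0.79 (SE 0.07). C1qa was sixth by p among the 15521 probe sets, and 0.329% of them had a log2 fold change at least as large in either direction. It kept its call under every alternative that kept the block, at log2 fold changes of 0.74 to 0.81.

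The B chain showed no difference that the 5 pairs could resolve. C1qb (1370215_at) was measured at 2.25, 1.57, 2.35, 2.55 and 2.43 in control macrophages and at 2.56, 1.61, 2.21, 2.51 and 2.30 in mye-macrophages. It was higher in 2 pairs and lower in 3, with a log2 fold change of 0.01 (SE 0.08, adjusted p 0.981), and its sign turned under several alternatives. Replicate 2 was the lowest sample of both groups. The mean signal of C1qb was 2.24, at percentile 49.0 of all probe sets tested and below 2.32, the median of all values. This low level limits what can be read from the probe set.

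C1qc (1373025_at), the C chain, read 3.60, 3.26, 3.96, 3.73 and 3.46 in control macrophages and 3.40, 2.87, 3.61, 3.73 and 3.08 in mye-macrophages. It was lower in 4 pairs and equal in the pair of replicate 4, and the groups overlap widely. Its log2 fold change of -0.27 (SE 0.08) was not called, at an adjusted p of 0.109. As in C1qb, replicate 2 was the lowest of both groups.

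The 3 chain genes lie next to each other on chromosome 5 in RefSeq, in the order C1qb, C1qc, C1qa, with 0 genes between neighbours. Their differences within pairs were set against each other, as part of 5 such comparisons of members that work together. The difference of C1qa exceeded that of C1qb by 0.78 on the log2 scale (0.65 to 0.87 over the pairs, larger in 5 of 5) and that of C1qc by 1.05 (0.81 to 1.16, larger in 5 of 5). Both had a p of 0.0625 in the exact two-sided sign-flip test, the smallest that 5 pairs allow, and 0.156 after Benjamini-Hochberg adjustment over the 5, so neither could reach the threshold. C1qb exceeded C1qc by 0.27 (-0.05 to 0.51, exact p = 0.125). The mean signals of the probe sets differed, at 6.11 for C1qa, 2.24 for C1qb and 3.47 for C1qc. What this does to the contrasts was not tested. After each group's mean was taken away, C1qa did not vary with the other chains (Pearson r of -0.28 with C1qb and -0.23 with C1qc), while C1qb and C1qc gave 0.70, over 10 samples that come in 5 pairs, as a description. The mean of the 3 is therefore no pattern that they share. The genes whose signal varied most like the mean of the 3 C1q probe sets, treated in the same way, were Aldh4a1, Sub1, Abr, Sash3 and Paqr8 (Pearson r of 0.96 to 0.97 over the same samples). They were picked as the highest r among all other probe sets with a single symbol. How high such a maximum runs among unrelated genes was not tested.

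The proteases of C1 were higher in mye-macrophages in every pair without passing the threshold. C1r (1383241_at) was 8.18, 7.69, 7.42, 6.88 and 7.12 in control macrophages and 8.74, 8.0, 7.77, 7.07 and 7.35 in mye-macrophages. The replicates keep 1 order in both groups, with replicate 1 highest and replicate 4 lowest, and the range of each group is wider than the difference of any pair. The log2 fold change was 0.33 (SE 0.07, 0.19 to 0.56 over the pairs). Its adjusted p of 0.0517 was below 0.05 with quantile normalization, with a trended robust prior and with 1 probe set per gene.

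C1s (1387893_at), the protease that C1r cleaves, lies beside C1r on chromosome 4 with 0 genes between. It was 7.18, 7.27, 7.03, 6.99 and 6.86 in control macrophages and 8.09, 7.73, 7.39, 7.03 and 6.92 in mye-macrophages. The difference was uneven, at 0.92 in the pair of replicate 1 and between 0.05 and 0.46 in the others, and the log2 fold change was 0.37 (SE 0.12, adjusted p 0.134). The difference of C1r minus that of C1s was -0.04 on average and ran from -0.36 to 0.18 over the pairs, larger for C1r in 2 of 5 (exact sign-flip p = 0.688, in a test that 5 pairs cannot bring to the threshold).

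**Figure D2:**
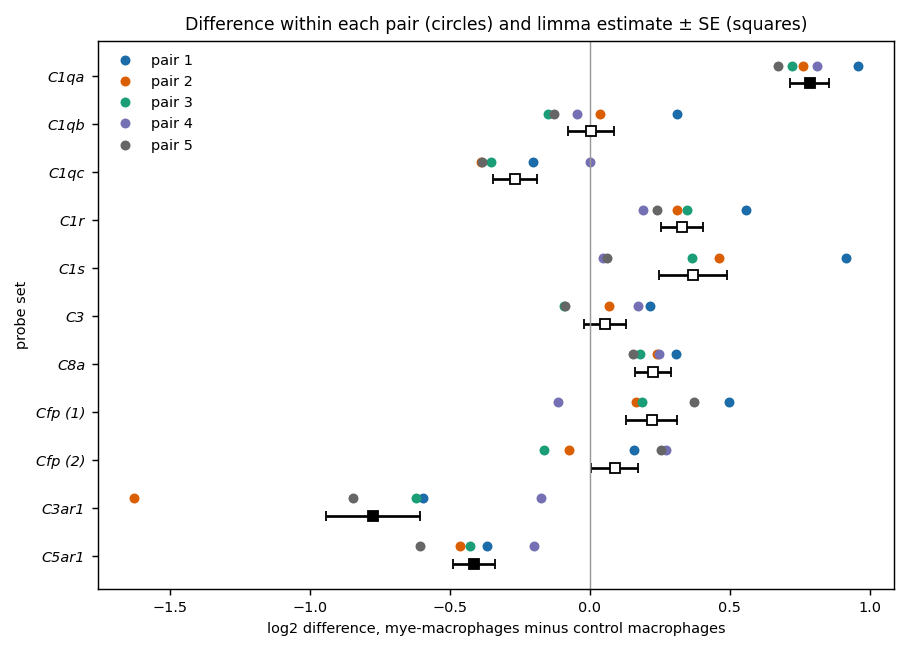
Log2 difference of each pair, mye-macrophages minus control macrophages (horizontal axis), for the 11 probe sets, with circles for the 5 pairs and squares for the limma estimate ± SE, filled where adjusted p was under 0.05. C1qa, C3ar1 and C5ar1 are filled, and C1qb, C3 and both Cfp probe sets have pairs on both sides of 0.

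C3, on which all complement pathways converge, differed far more between replicates than between groups. C3 (1368000_at) was 6.17, 5.16, 6.89, 7.04 and 6.49 in control macrophages and 6.38, 5.23, 6.79, 7.22 and 6.40 in mye-macrophages. Replicate 4 was the highest and replicate 2 the lowest of both groups, and the 5 replicates kept 1 order. The log2 fold change was 0.06 (SE 0.08, adjusted p 0.718), with 3 pairs higher and 2 lower.

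Properdin, the plasma protein that stabilizes the C3-cleaving enzyme of the alternative pathway, was measured by 2 probe sets. At Cfp 1379019_at the control samples read 2.33, 2.89, 2.63, 2.81 and 2.57 and the mye-macrophages 2.83, 3.05, 2.82, 2.70 and 2.95, higher in 4 of 5 pairs (log2 fold change 0.22, SE 0.09, adjusted p 0.216). At Cfp 1393411_at they read 0.96, 1.32, 1.36, 1.12 and 1.03 against 1.12, 1.25, 1.20, 1.40 and 1.29, higher in 3 of 5 pairs (0.09, SE 0.08, adjusted p 0.594). The pair of replicate 4 was the only one lower at the first probe set and had the largest positive difference at the second. The second had a mean signal of 1.21, at percentile 26.5 and below 2.32, the median of all values. This low level limits what can be read from it. With each group's mean taken away, the 2 probe sets had a Pearson r of 0.42 over the 10 samples.

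C8a, the alpha chain of C8 and part of the membrane attack complex, was the only member whose groups did not overlap. C8a (1382554_at) was 0.59, 0.73, 0.68, 0.52 and 0.65 in control macrophages and 0.90, 0.97, 0.86, 0.77 and 0.80 in mye-macrophages. Groups that do not overlap were found in 1 of 11 member probe sets and in 0.734% of the 15521. The log2 fold change was 0.23 (SE 0.06) and was not called (adjusted p 0.0996). Its mean signal was at percentile 9.19 of all probe sets tested, near the lowest values of the arrays. C8a is known as a product of the liver.

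The receptors for C3a and C5a were both lower in mye-macrophages in 5 of 5 pairs. C3ar1 (1369173_at) was 3.47, 4.61, 4.21, 2.64 and 4.80 in control macrophages and 2.87, 2.98, 3.58, 2.46 and 3.96 in mye-macrophages. The groups overlap, with control replicate 4 below 4 of the 5 mye-macrophage samples. The differences ran from -1.63 in the pair of replicate 2 to -0.18 in that of replicate 4, for a log2 fold change of -0.77 (SE 0.17). Without replicate 2 the log2 fold change was -0.56, at an adjusted p of 0.0766.

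C5ar1 (1368742_at) was 8.74, 9.02, 9.14, 8.93 and 9.59 in control macrophages and 8.38, 8.55, 8.72, 8.73 and 8.98 in mye-macrophages, means of 9.09 ± 0.32 and 8.67 ± 0.23 (SD, n = 5). Control replicates 1 and 4 lie among the mye-macrophages and mye-macrophage replicate 5 among the controls, but every pair fell, by 0.20 to 0.61 on the log2 scale. The log2 fold change was -0.41 (SE 0.08). The difference of C3ar1 was more negative than that of C5ar1 in 4 of 5 pairs, with a mean of C3ar1 minus C5ar1 of -0.36 (from -1.16 to 0.02, exact sign-flip p = 0.125, in a test that cannot reach the threshold with 5 pairs). The calls of both were lost without replicate 1, 2, 4 or 5 (adjusted p of 0.0551 to 0.125 for C3ar1 and 0.0551 to 0.104 for C5ar1) and when all probe sets were adjusted together (0.0922 and 0.0566).

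Counting by pairs, 4 of 11 probe sets were higher in 5 of 5 pairs (C1qa, C1r, C1s and C8a), against 7.53% of the 15521, and 2 of 11 were lower in 5 of 5, against 9.59%. The pair of replicate 1 gave the highest difference of the 5 pairs in 7 of the 11 probe sets, against 22.5% of the 15521. The 7 were C1qa, C1qb, C1r, C1s, C3, C8a and Cfp 1379019_at. Another measure moved with this pair. RNA quality was read from the gap between the 3′ and 5′ control probe sets for actin, which was larger in mye-macrophages by 0.82 for replicate 1, against 0.45, -0.21, 0.00 and 0.29 for replicates 2 to 5. With this gap as a covariate C1qa was still called (log2 fold change 0.74, adjusted p 0.034), while C3ar1 (-0.65, 0.302) and C5ar1 (-0.40, 0.200) were not and the log2 fold change of C1s was 0.20. In that fit 16 probe sets were called in all, against 418.

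In 8 of the 11 probe sets most of the variation lay between replicate numbers. The number accounted for 98.9% of the sum of squares of C3, 94.1% of C1qb, 89.5% of C1r and 76.2% of C1qc, and the group for 0.171%, 0.00644%, 9.16% and 18.1%. The exceptions were C8a (24.7% for the number), Cfp 1379019_at (40.3%) and Cfp 1393411_at (46.7%). The group's share was largest at C8a (71.2%), C1qa (43.6%) and C5ar1 (41.3%). It exceeded that of the replicate number only at C8a. For C1qa 0.676% was left to neither, so that nearly all of its spread was a replicate level with a nearly equal step added. Over the 15521 probe sets the median share was 67.3% for the replicate number and 5.67% for the group.

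**Figure D3:**
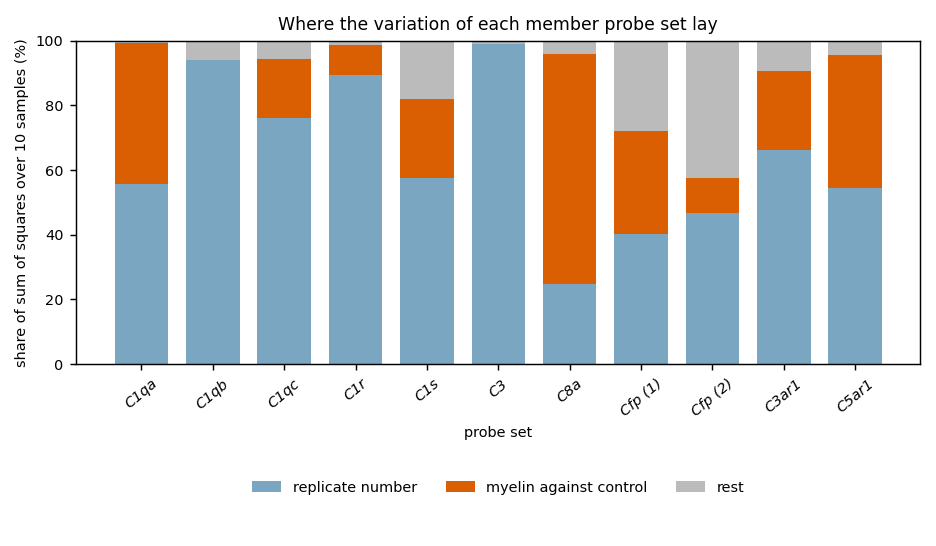
Share of the sum of squares over the 10 samples (vertical axis, percent) that lay between replicate numbers, between mye-macrophages and control macrophages, and in the rest, for the 11 probe sets. The replicate number took 98.9% at C3 and the group 71.2% at C8a.

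Of 43 other complement genes listed, 32 had a probe set here, 46 probe sets in all. Of these, 26 were in the variance filter and could be called, of which 1 was higher and 0 were lower (0.792% and 1.90% of the 15521). An unadjusted p under 0.05 was found for 7 of the 26, against 20.3% of the 15521. The median log2 fold change of the 46 was 0.05. The called gene was Cfd, factor D, the protease that cleaves factor B in the alternative pathway. Cfd (1388602_at) was 2.69, 2.06, 4.06, 4.88 and 3.92 in control macrophages and 3.53, 2.47, 4.67, 5.30 and 4.26 in mye-macrophages. It was higher in 5 of 5 pairs over replicates that spread widely in both groups (log2 fold change 0.52, SE 0.09, adjusted p 0.0216). Its call was lost without the replicate block, with the actin covariate and without replicate 1, 2, 4 or 5.

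None was called among the 8 genes of target recognition (the lectin pathway and Crp, 5 of 13 probe sets in the filter), the 5 other terminal components (3 of 5 in the filter) or the 6 soluble regulators (3 of 7 in the filter). Next to the threshold was Serping1, the inhibitor of C1r and C1s, at a log2 fold change of 0.43 (SE 0.10, adjusted p 0.0528, higher in 5 of 5 pairs), and C8g, the gamma chain of C8, stood at 0.37 (adjusted p 0.10). None of the 4 membrane regulators (6 probe sets, all in the filter) was called either. Cd46, a cofactor for C3b cleavage, had a log2 fold change of -0.36 (adjusted p 0.0551) and Cd59b, a gene for the CD59 inhibitor of the membrane attack complex, -0.34 (adjusted p 0.0658), both lower in 5 of 5 pairs. Serping1, C8g, Cd46 and Cd59b were picked after their values were seen. The mean signals of C8g (2.31) and Cd46 (1.98) were below 2.32, the median of all values, and those of Serping1 (5.43) and Cd59b (5.47) were above it. Cr1l, which in rodents encodes the C3 regulator Crry, was at 9.01 ± 0.25 in control macrophages and 9.04 ± 0.27 in mye-macrophages (SD, n = 5), and Cd55, decay accelerating factor, at 8.52 ± 0.30 and 8.43 ± 0.31.

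Of the 8 receptor and binding protein genes, with 8 of 14 probe sets in the filter, 0 were called. Itgb2, Itgam and Itgax encode the chains of complement receptors 3 and 4, integrins that take up particles coated with fragments of C3. The shared beta chain Itgb2 had a log2 fold change of 0.10 (SE 0.07), Itgam 0.14 (SE 0.07) and Itgax -0.24 (SE 0.07, adjusted p 0.0928, lower in 5 of 5 pairs). Lrp1, an endocytic receptor, had -0.03 (SE 0.07) and was outside the variance filter.

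**Figure D4:**
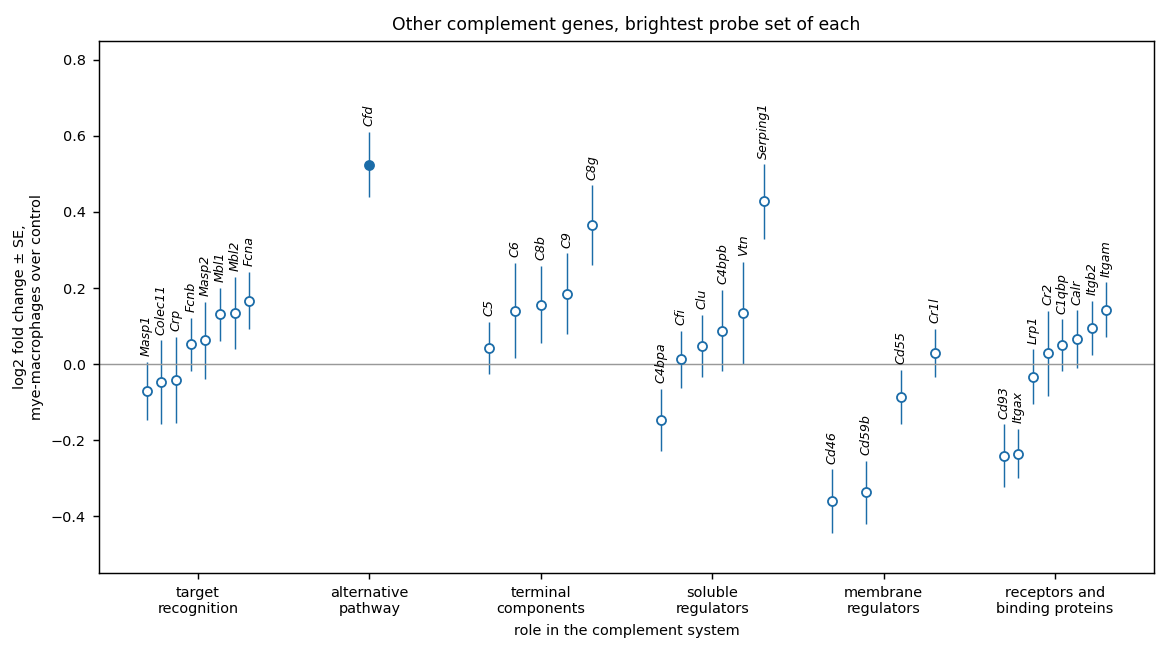
Log2 fold change ± SE (vertical axis), mye-macrophages over control macrophages, for the brightest probe set of each of 32 other complement genes, by their role in the system (horizontal axis). Cfd, the filled circle at 0.52, is the only one with an adjusted p under 0.05, and Serping1 and Cd46 lie at 0.43 and -0.36.

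The arrays carried the macrophage markers. Of 11 measured, 10 lay above 2.32, the median of all values, among them Cd68, Lyz2 and Cd14, while Cd163 did not. Gata6 (mean 2.33) was only just above it, and 1 (Mrc1, mean 2.64) was called higher. Markers of other cells above 2.32 numbered 3 of 11 for mesothelial cells and fibroblasts and 1 of 8 for hepatocytes. For T and NK cells they numbered 4 of 10. They numbered 0 of 3 for B cells, 2 of 10 for granulocytes and mast cells, 0 of 4 for microglia and 0 of 8 for neurons and astrocytes. None of these lists had a called marker. The summed level of the mast cell and granulocyte list was 4.94 to 8.38 in control macrophages and 4.97 to 8.45 in mye-macrophages. It was higher by 1.25 in mye-macrophages in the pair of replicate 1. Replicate 4 was its highest sample in both groups. The list of mesothelial cells and fibroblasts was also highest in replicate 4, at 6.72 in control macrophages and 6.76 in mye-macrophages. Of 13 oligodendrocyte genes 6 were above the median and 2 were called higher, Mobp and Bcas1, with a summed level of 7.50 to 7.80 in control macrophages and 7.82 to 8.19 in mye-macrophages. The part of these other cells in the complement values was not tested. In bulk RNA a change in the share of a cell type and a change in RNA per cell cannot be told apart.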

How the data were processed

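RNA of 5 control macrophage and 5 mye-macrophage samples was hybridized to Affymetrix rat genome arrays, and the number of arrays limits the precision. The authors deposited log2 values, RMA signals of each probe set made with the affy package from the scanner files (background corrected, quantile normalized and summarized over probes), and the version is not given in the sources used here. The medians of the arrays, 2.30 to 2.34, are low for RMA signals, which no source used here explains. The folds are read between samples of a probe set and assume log base 2. Signal was set across probe sets only as a rough description, in mean levels, percentiles, marker counts and sums, and the choice of the highest means. The 57 control probe sets of the manufacturer were set aside. The remaining 31042 were fitted in R 4.3.3 with lmFit and eBayes of limma 3.58.1, with group and replicate number as terms. P-values were Benjamini-Hochberg adjusted over the 50% most variable probe sets (by interquartile range), the filter of the study's methods, and called at an adjusted p under 0.05. The script was tested on simulated data. Exact sign-flip tests used Python 3.11 and SciPy 1.17.1.

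The replicate numbers pair the samples: deviations from the group means correlated at 0.404 to 0.791 between samples of the same number, over the threshold of 0.1, and at most at 0.279 across numbers, and 10 of 10 samples correlated best with their own number. What the numbers mean is not given in the labels, nor whether the samples came from separate animals, so p-values measure only the spread between these samples. The methods' unpaired test, the fit without the block and other settings were run as alternatives. The members, gene lists and alternatives were chosen with earlier results of these data known. All member probe sets were named, and of the other complement genes those called, the 6 with the highest mean signal, any whose groups did not overlap, and a few picked after their values were seen. Symbols are those of the array annotation, with no name taken from the 436 probe sets that carry several. Promoters and gene neighbours came from RefSeq (GRCr8).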

Additional observations from a re-analysis of the deposited data

How the results depend on the processing

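Calls of members changed with the settings as follows. C1qa was called higher in every fit with the replicate block. With no replicate block, and with the methods' t-test, 0 members were called higher, 0 lower and 0 other complement probe sets, and 0 of the 15521 probe sets were called in all (1032 and 778 at an unadjusted p under 0.05). Members called higher numbered 2 with quantile normalization, with a trended robust prior and with 1 probe set per gene, C1r being added each time. Members called lower numbered 0 with no variance filter and 0 with the actin gap added as a covariate beside the replicate block, and 0 to 2 when 1 replicate was left out, with 2 only without replicate 3. Other complement probe sets called numbered 2 with quantile normalization (Serping1 added to Cfd), 5 with the trended robust prior, 3 with array weights, 3 with 1 probe set per gene, 0 with the actin covariate and 0 to 2 without 1 replicate. Over all probe sets, calls fell from 418 to 128 without the filter and rose to 1041 with the trended robust prior, and lay between 31 and 672 without 1 replicate. The median over members stayed above 0. The sign of C1qb turned with quantile normalization (-0.0023), array weights (-0.0152) and the actin covariate (-0.104), and ran from -0.0708 to 0.0437 without 1 replicate. In fits without the block that left out 1 sample, C1qb ran from -0.159 to 0.162 and C3 from -0.241 to 0.348. The cause was not tested. The low signal of C8a, near the lowest values of the arrays, limits what can be read from it.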
